A study of Caenorhabditis elegans with 2 samples.

Results

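The cell death and engulfment genes are 10 genes of the nematode Caenorhabditis elegans, taken by name from the Ensembl annotation of the WBcel235 genome out of 19973 protein-coding genes on the nuclear chromosomes. They comprise 4 killing genes (egl-1, ced-9, ced-4 and ced-3) and 6 engulfment genes (ced-1, ced-6, ced-2, ced-5, ced-12 and ced-10). They were listed by name with no cut on a measured value, but were proposed with earlier results of these data known. Binding of TBX-37 at these genes was read from peak lists of chromatin immunoprecipitation followed by sequencing, in which DNA that is crosslinked to a protein is recovered with an antibody and sequenced. The samples formed 1 group of 2 biological replicates of strain RW12282, in which the endogenous tbx-37 gene on chromosome III carries an insertion that adds TY1, EGFP and 3xFLAG tags, and the antibody was directed against the green fluorescent protein. Both replicates carried the same tagged allele, and the tissue was whole early embryos of 0 hours obtained by bleaching. With whole embryos, strong binding in a few cells and weak binding in many cells cannot be told apart.

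In C. elegans, many somatic cells die at set points of the lineage, most of them during embryogenesis, and neighbouring cells take up the corpses. The decision to die runs through a linear pathway in which EGL-1 binds CED-9, CED-9 then releases CED-4, and CED-4 activates the caspase CED-3. Corpse removal runs through partly parallel branches, with CED-1 and CED-6 in one and CED-2, CED-5 and CED-12 in the other, and both lead to CED-10, the Rac protein that rearranges actin for engulfment. TBX-37 is a T-box transcription factor of the ABa-derived lineages.

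None of the killing genes held a peak of the conservative list, and 3 of the 6 engulfment genes did. In the series-wide conservative list, 0 of 4 killing genes and 3 of 6 engulfment genes (ced-5, ced-2 and ced-6) had a summit in the gene body or within 5000 bp of it, where 14.5% of all protein-coding genes had one. The peak at ced-5 lay between its start and that of a divergent gene, slightly closer to ced-5. The peak near ced-2 lay closer to the start of another gene, and the peak near ced-6 lay beyond its 3′ end inside another gene. When each summit was given only to the nearest protein-coding start within 5000 bp, 0 of 4 killing genes and 1 of 6 engulfment genes, ced-5, kept a peak, against 4.69% of all protein-coding genes. The counts are small, and no test was made because the genes were proposed with earlier results of these data known. In the own list of replicate 1 the engulfment count was 2, with ced-6 and ced-5, against 7.50% of all genes in that list, and in the own list of replicate 2 it was 3, against 11.2% of all genes. The killing count was 0 in both.

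The conservative list held 1107 peaks. Its peaks are part of a series-wide ranked list of 66355 candidates, regions that entered a comparison between sets of peak calls. Each candidate has a signal value, which is the caller's own measure of enrichment, and an irreproducible discovery rate (IDR), the estimated chance that it does not recur between the sets of calls compared. Rank 1 is the highest signal value of a list, and ranks and signal values are given within a list because the scale differs between lists. The ranked lists of replicate 1 and replicate 2 held 39578 and 44219 candidates. Of the series-wide candidates, 1312 reached the lowest score of the conservative list, and 205 of those are not in it. The lists hold no read counts, so the sequencing depth behind each value is unknown.

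**Figure D1:**
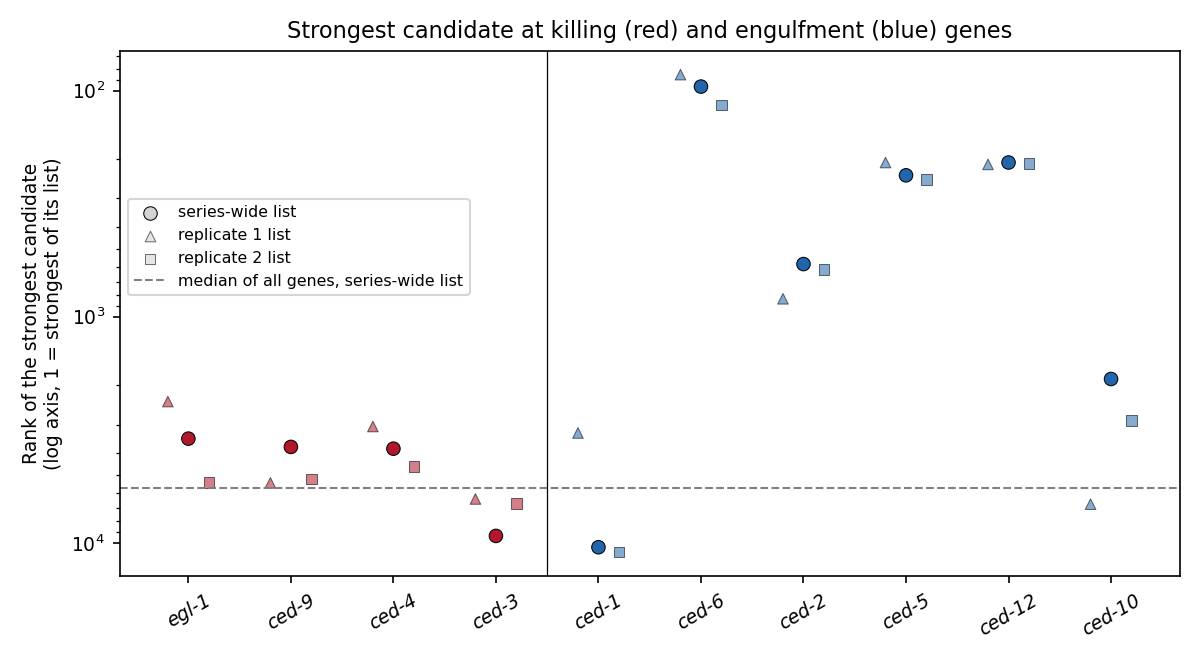
Rank of the strongest candidate in each gene or within 5000 bp, with killing genes on the left and engulfment genes on the right. Circles show the series-wide ranked list, triangles replicate 1 and squares replicate 2, the axis is logarithmic with the strongest at the top, and the dashed line is the series-wide median of all genes, 5729. The 4 killing genes lie between 3461 and 9319 in the series-wide list, while ced-6, ced-12, ced-5 and ced-2 lie between 96 and 585.

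The killing gene egl-1 encodes a BH3-only protein that starts the death program, and its transcription is the step at which lineage cues are known to act. It lies at chrV:14431308-14432359 on the minus strand, with 8781 bp between it and the next gene upstream, F23B12.4. Its strongest series-wide candidate, chrV:14432259-14432514, had its summit 28 bp upstream of the annotated start, with a signal value of 52.7, rank 3461 and an IDR of 0.207. That candidate sat at the egl-1 promoter but did not reach the threshold of 0.01. Replicate 1 held it at rank 2372 of its own list with a signal value of 26.5 and an IDR of 0.882, as the strongest in the window. Replicate 2 held it at rank 13615 with a signal value of 24.8 and an IDR of 0.534. There it stood behind a region 4219 bp upstream that ranked 5404 with a signal value of 31.3. The replicates therefore differed in which region of the egl-1 window stood highest. A further candidate lay 2765 bp past the 3′ end, on the side where control elements of egl-1 are known, with a signal value of 46.1 and an IDR of 0.541. Its summit was 622 bp from the start of F23B12.1, the nearest start, and 3816 bp from that of egl-1. The nearest conservative peak lay 7829 bp past the 3′ end of egl-1, with a signal value of 118.6, and its summit was 175 bp from the start of rpoa-12.

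The gene ced-9 encodes the Bcl-2 family protein that holds the death program off. It lies at chrIII:10335172-10337522 on the plus strand, 3 bp behind the end of mev-1, a gene of mitochondrial complex II with which it forms an operon, so that transcription starts upstream of mev-1. The strongest series-wide candidate, chrIII:10334021-10334276, had its summit 1023 bp upstream of ced-9, between the divergent starts of mev-1 and jmjd-4. Its signal value was 51.7, its rank 3765 and its IDR 0.253. Replicate 1 ranked it 5431 (signal value 22.0, IDR 0.916), as the strongest in the window. Replicate 2 ranked it 15417 (signal value 23.8, IDR 0.928), behind a region 4778 bp past the ced-9 end at rank 5223 (signal value 31.6). As at egl-1, the replicates had different regions on top. In replicate 1, however, a region in an intron of ttr-15 was almost as high as the ced-9 candidate, at rank 5460 (signal value 21.9). The nearest conservative peak lay 36649 bp from ced-9.

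The sequences at these candidates are shown because they are the regions upstream of the starts from which egl-1 and ced-9 are transcribed. For egl-1 the part upstream of the annotated start is given (chrV:14432360-14432514, minus strand), and for ced-9 the whole candidate (chrIII:10334021-10334276, plus strand). Capitals mark the searched motifs AGGTGTGA and TCACACC (the T-box consensus and its reverse complement without the last base), GGTGTG (the core, so that these words overlap each other), GAGAGA for GA repeats, GGGCGG for a GC-rich box, TGATAA for GATA factors and CACGTG for E-boxes, each on either strand. Sequence is from the RefSeq copy of WBcel235, the assembly of ce11.
egl-1: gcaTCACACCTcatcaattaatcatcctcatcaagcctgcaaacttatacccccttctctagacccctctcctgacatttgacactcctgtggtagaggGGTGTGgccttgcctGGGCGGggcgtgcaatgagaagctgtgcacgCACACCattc
ced-9: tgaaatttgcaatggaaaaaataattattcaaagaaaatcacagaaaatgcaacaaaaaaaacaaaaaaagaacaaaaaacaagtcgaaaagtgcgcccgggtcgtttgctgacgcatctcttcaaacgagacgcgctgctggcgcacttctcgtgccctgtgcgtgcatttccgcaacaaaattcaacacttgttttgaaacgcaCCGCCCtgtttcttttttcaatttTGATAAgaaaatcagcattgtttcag
The shown part of the egl-1 region held the letters of the T-box consensus as TCACACCT, centred 148 bp upstream of the start and 120 bp from the summit. It held the core at 2 more places, centred 54 and 8 bp upstream of the start. TCACACC also occurred within 100 bp of the summit, at a place that reaches into the part not shown. The candidate shares that follow are over whole regions. AGGTGTGA was present in 0.698% of the regions of all 66355 candidates, in 0.452% of conservative peak regions and in 0.566% of the 201 bp upstream of all protein-coding starts. The core GGTGTG was present in 7.48% of all candidate regions and 8.22% of conservative ones. AGGTGTGA was thus no more frequent in conservative peak regions than in all candidate regions, and the IDR of the egl-1 candidate missed the threshold. The ced-9 region held GGGCGG, read as CCGCCC, and TGATAA, and neither T-box word. A match of letters is not a binding site, and no test was made of it.

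The gene ced-4 encodes the homolog of Apaf-1, the adaptor that activates the caspase, and ced-3 encodes that caspase. At ced-4 (chrIII:4852325-4855171, plus strand) the strongest series-wide candidate lay in a coding exon 867 bp past the start, with a signal value of 51.5, rank 3834 and an IDR of 0.365. A second ced-4 candidate, 4995 bp past the gene end inside a coding exon of C35D10.6, was nearly as high. It had a signal value of 49.1 and a lower IDR, 0.106. Replicate 1 ranked the exon candidate 3058 (IDR 0.892) and replicate 2 ranked it 18517 (IDR 0.697). In replicate 2 a region overlapping the C35D10.6 candidate stood highest in the window, at rank 4587. At ced-3 (chrIV:13198261-13204137, minus strand) the strongest series-wide candidate lay in an intron 2506 bp past the start, with a signal value of 41.6, rank 9319 and an IDR of 0.561. The next ced-3 candidate, 2135 bp upstream, had a signal value of 39.3, so no region of the ced-3 window stood out. Replicate 1 ranked the intron candidate 10226 (IDR 0.848) and replicate 2 ranked it 28215 (IDR 0.928). It was the strongest of the window in neither, where other regions stood highest at ranks 6397 and 6681. The nearest conservative peaks lay 50373 bp from ced-4 and 36616 bp from ced-3. For egl-1, ced-9, ced-4 and ced-3 in turn, 35.7%, 37.8%, 38.3% and 66.3% of the 18489 genes with a candidate in their window had a stronger one.

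**Figure D2:**
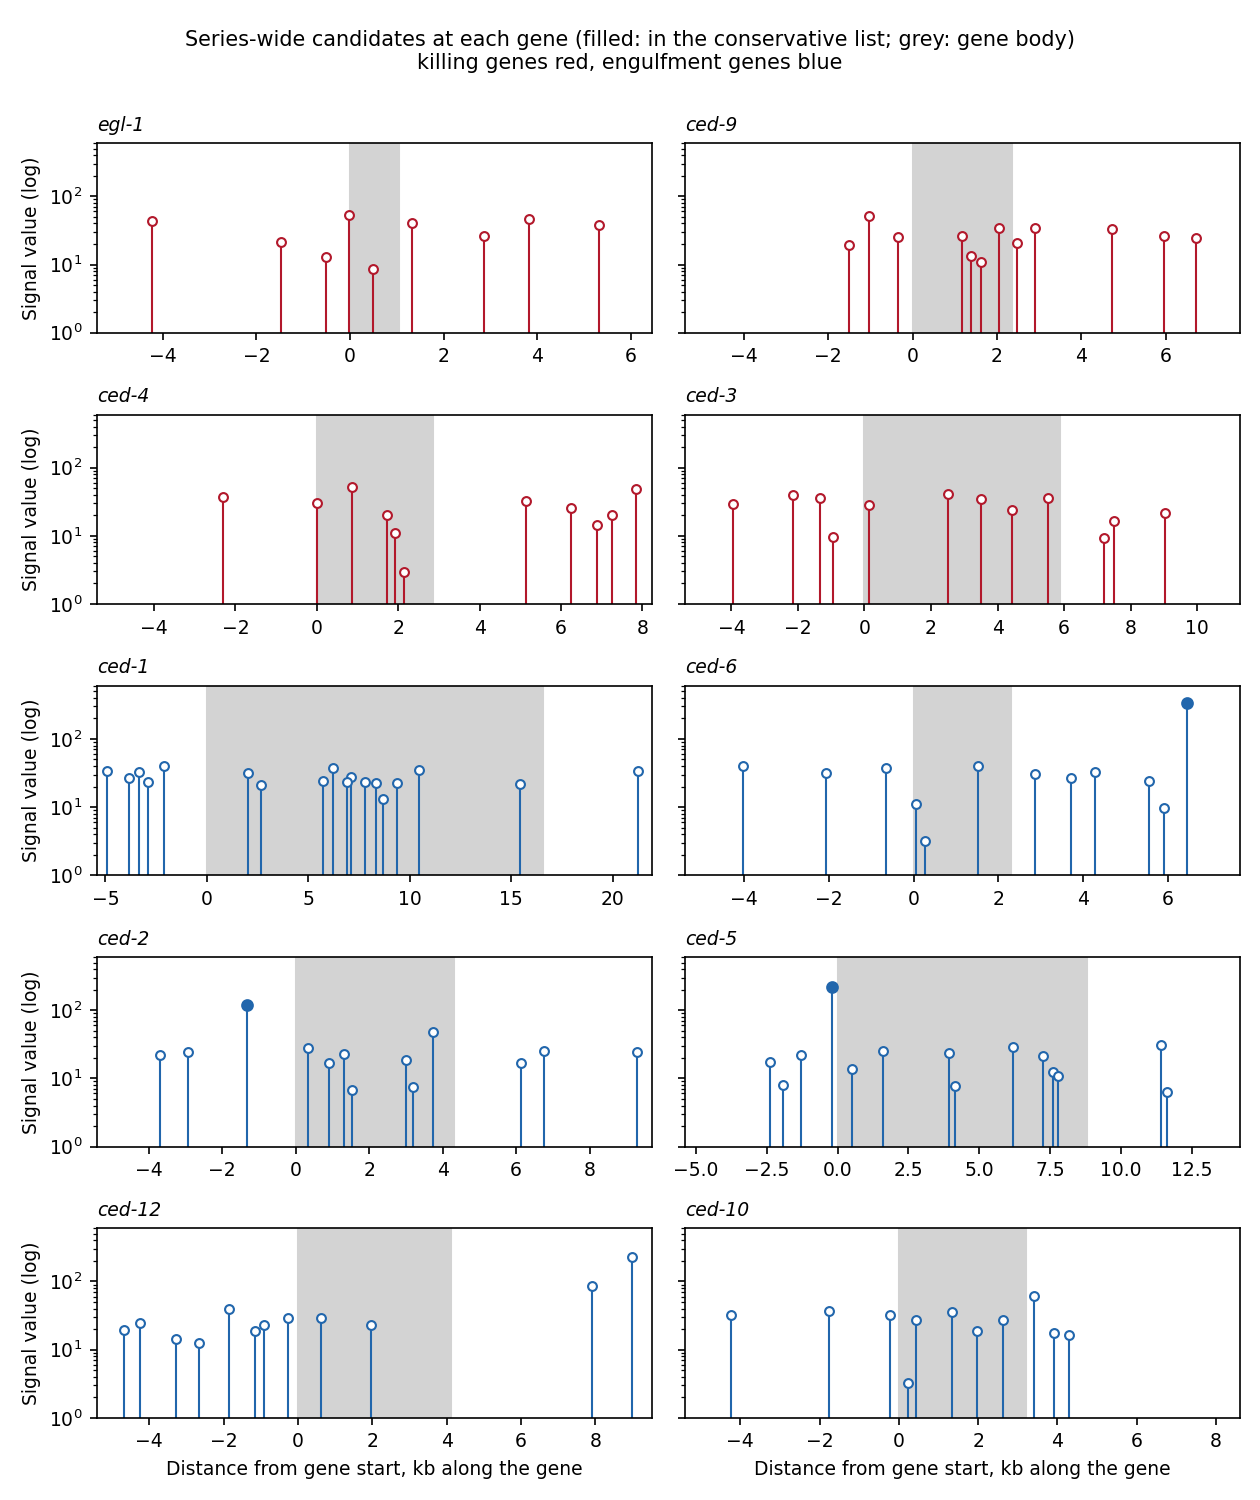
Signal value (logarithmic axis) of every series-wide candidate against its distance from the gene start, in kb along the gene, for each of the 10 genes. Filled points are in the conservative list, open points are not, and grey marks the gene body. No candidate of a killing gene exceeds 52.7, while ced-5, ced-2, ced-6 and ced-12 each show a candidate at 118.3 or more.

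Among the engulfment genes, ced-5 had the peak closest to its own start. It encodes the homolog of DOCK180, which with CED-12 acts as the exchange factor for the Rac protein CED-10. The gene lies at chrIV:10484110-10492913 on the plus strand, and the peak chrIV:10483852-10483955 lies in the 452 bp between ced-5 and the divergent gene F01D4.5. Its summit was 195 bp upstream of ced-5 and 258 bp from the start of F01D4.5, so the position does not separate the promoters. The signal value was 216.3, at rank 149 of the conservative list and rank 237 of the series-wide ranked list, with an IDR of 1.92e-05. Replicate 1 had it at rank 208 with a signal value of 85.3, and replicate 2 at rank 248 with a signal value of 131.2. Both replicates also had it in their own thresholded lists. No other candidate in the ced-5 window exceeded a signal value of 30.9, and 2.89% of genes had a stronger candidate than ced-5.

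The gene ced-2 encodes the homolog of the adaptor protein CrkII, which acts with CED-5 and CED-12. It lies at chrIV:1597318-1601621 on the plus strand. The peak chrIV:1595857-1596112 had its summit 1333 bp upstream of ced-2 and 161 bp from the start of npp-8, a nuclear pore gene on the other strand. By nearest start it was a peak of npp-8. Its signal value was 118.3, at rank 446 of the conservative list and rank 585 of the series-wide ranked list, with an IDR of 0.000599. Replicate 1 ranked it 833 with a signal value of 37.7 and an IDR of 0.0306, which did not pass, and replicate 2 ranked it 618 with a signal value of 72.8 and an IDR of 0.00137, which did. The peak near ced-2 was thus in the own list of replicate 2 and not in that of replicate 1.

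The gene ced-6 encodes an adaptor that binds the tail of the engulfment receptor CED-1. It lies at chrIII:5595771-5598061 on the plus strand. The peak chrIII:5602138-5602296 was the strongest at any of the 10 genes, with a signal value of 333.5 at rank 38 of the conservative list and rank 96 of the series-wide ranked list. Its IDR of 1e-05 is the lowest that the lists give. Replicate 1 ranked it 85 with a signal value of 135.7, and replicate 2 ranked it 116 with a signal value of 192.6. The summit lay 4168 bp past the ced-6 end, in an intron of madf-11 and within 100 bp of the snoRNA gene C05D2.15, and the nearest starts were those of madf-11, 1260 bp away, and wdr-37, 2171 bp away. Without this peak, the strongest ced-6 candidate was in a coding exon 1507 bp past the start, with a signal value of 40.6 and an IDR of 0.268. With peaks at small RNA genes left out, an alternative chosen after seeing the data, 2 of 6 engulfment genes had a peak, against 11.2% of all genes.

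The sequences of the conservative peaks at these engulfment genes are shown on the plus strand to compare the regions that entered the conservative list. Capitals mark the motifs listed above and, in addition, a word shared by the ced-5 and ced-2 peaks.
ced-5 (chrIV:10483852-10483955): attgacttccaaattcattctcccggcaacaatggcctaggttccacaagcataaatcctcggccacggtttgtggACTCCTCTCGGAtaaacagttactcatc
ced-2 (chrIV:1595857-1596112): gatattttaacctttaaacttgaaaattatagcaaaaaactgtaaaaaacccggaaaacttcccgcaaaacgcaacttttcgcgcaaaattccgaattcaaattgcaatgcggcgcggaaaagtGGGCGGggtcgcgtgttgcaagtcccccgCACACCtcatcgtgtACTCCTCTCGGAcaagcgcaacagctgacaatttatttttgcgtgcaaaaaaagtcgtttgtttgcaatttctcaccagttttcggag
ced-6 (chrIII:5602138-5602296): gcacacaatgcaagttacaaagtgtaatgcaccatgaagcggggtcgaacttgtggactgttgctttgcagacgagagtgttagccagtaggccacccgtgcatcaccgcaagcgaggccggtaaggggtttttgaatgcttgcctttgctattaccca
The ced-5 and ced-2 peaks share the 12-base word ACTCCTCTCGGA in the same orientation, centred 18 bp from the ced-5 summit and 46 bp from the ced-2 summit. It was the longest word common to any of the 10 pairs among the 5 sequences shown, and the next longest had 11 bases, between ced-2 and egl-1, and contains the CACACC capitalised in the ced-2 peak. The 12-base word lay within 100 bp of 31 of the 1107 conservative summits (2.80%) and in the 201 bp upstream of 43 of 19973 protein-coding starts (0.215%), with 240 copies on the nuclear chromosomes. The 31 peaks had signal values from 70.4 to 360 with a median of 159, against a median of 104 for the whole conservative list. The word was found by reading these peaks, so these shares are a description with no test. The ced-2 peak also held GGGCGG centred 2 bp from its summit and the core GGTGTG, read as CACACC, 28 bp from it. The ced-5 and ced-6 peaks held none of the searched motifs. Within 100 bp of the summit of the strongest candidate, GGGCGG was present at egl-1, ced-9 and ced-2, and at 12.1% of all conservative summits and 6.01% of promoters. GAGAGA was present at none of the 10 genes, against 25.7% of conservative summits and 16.4% of promoters. Most of these strongest candidates are not conservative peaks. Over the whole regions of all candidates, the shares were 6.19% for GGGCGG and 15.6% for GAGAGA.

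At ced-12, high candidates were present in the ranked lists but not in the conservative list. CED-12 is the homolog of ELMO and the partner of CED-5. The gene lies at chrI:10222881-10227009 on the minus strand. The candidate chrI:10217943-10218087 had a signal value of 229.5 at series-wide rank 208, with an IDR of 1.41e-05, and ranked 212 in replicate 1 (signal value 85.0) and 210 in replicate 2 (144.6). The candidate chrI:10218978-10219233 had a signal value of 84.4 at rank 958 and an IDR of 0.00202. Both reached the conservative list's lowest score, and both belong to the 205 candidates that it leaves out. Deposited text files name an additional file among the sources of the thresholded lists, and whether it removed these candidates was not tested. They lay 4870 and 3775 bp past the ced-12 end, and the nearest start, that of Y106G6E.4, was 4767 and 3672 bp away. Counting such candidates, an alternative chosen after seeing the data, 0 of 4 killing genes and 4 of 6 engulfment genes had one, against 15.4% of all protein-coding genes. The next highest candidate lay 1854 bp upstream of the ced-12 start, in a coding exon of csnk-1, with a signal value of 39.3. The sequence around the ced-12 summit had a GC content of 25.9%, while the strongest candidates of the other 9 genes ranged from 36.8 to 49.3% and conservative summits had a median of 44.3%.

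The remaining engulfment genes had no candidate past the threshold. The Rac gene ced-10 lies at chrIV:3506328-3509527 on the minus strand, and its strongest series-wide candidate lay 210 bp past its 3′ end, with a signal value of 61.9, rank 1886 and an IDR of 0.0785. Replicate 2 ranked that ced-10 candidate 2883 with a signal value of 36.4 and replicate 1 ranked it 6745 with a signal value of 20.9. The gene ced-1, which encodes the receptor that recognises dying cells, lies at chrI:11851554-11868105 on the minus strand and is the longest of the 10 at 16552 bp. Its window held 18 series-wide candidates, the most of any of the 10 genes, and the strongest, 2114 bp upstream, had a signal value of 40.4, rank 10460 and an IDR of 0.769. Replicate 1 ranked that region 5045 and replicate 2 had no candidate overlapping it. The nearest conservative peaks lay 62077 bp from ced-1, 60871 bp from ced-12 and 15295 bp from ced-10.

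**Figure D3:**
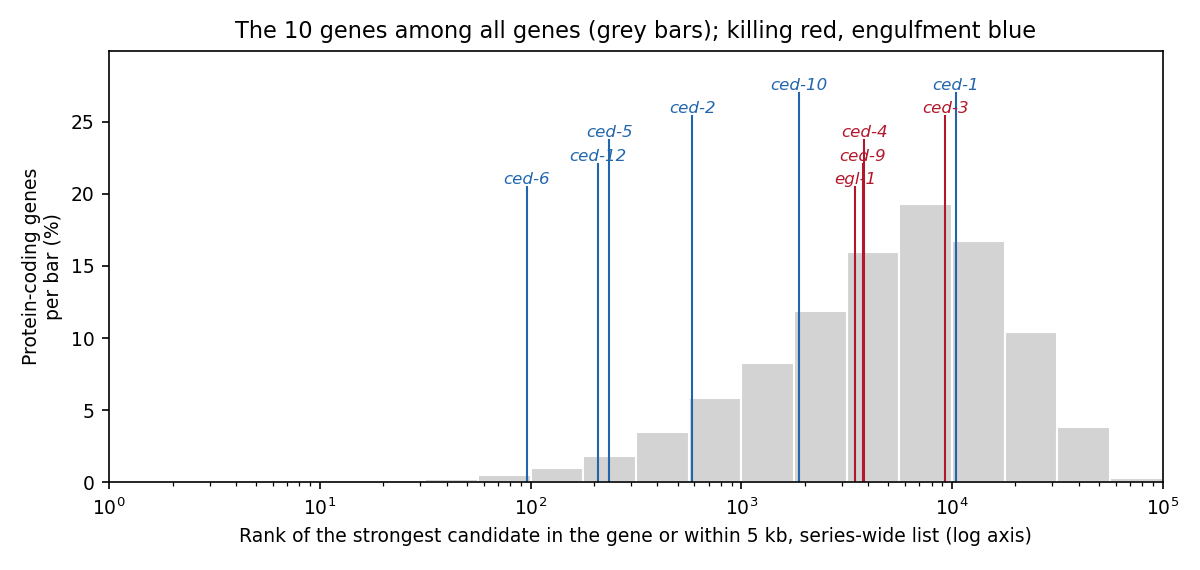
Share of protein-coding genes (grey bars, of 18489 genes with a candidate) by the rank of their strongest series-wide candidate on a logarithmic axis, with the 10 genes as labelled lines. The killing genes and ced-1 fall in the middle of the distribution, from 3461 to 10460, with 35.7% to 70.1% of genes stronger, and ced-6, ced-12, ced-5 and ced-2 fall in the left tail, at 96 to 585.

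Set side by side, the killing genes had strongest series-wide candidates with a median rank of 3799.5 (3461 to 9319) and the engulfment genes a median rank of 411 (96 to 10460), where all genes with a candidate had a median of 5729. The ranges overlapped, since ced-1 ranked below all 4 killing genes. The median number of candidates per window was 11.5 at killing genes and 12.5 at engulfment genes, but 8 at all genes, so the all-gene median is not matched for the content of the windows. The windows had median lengths of 12599 bp at killing genes, 14216.5 bp at engulfment genes and 12027 bp at all genes. The order of the medians depended on regions away from the gene starts. Within 2000 bp of the genes, or within 5000 bp of the starts alone, the killing median stayed at 3799.5 and the engulfment median was 6051, because the strong regions near ced-6 and ced-12 then fell outside. The all-gene medians at those settings were 9303 and 7108. Without the 205 candidates that the conservative list leaves out, an alternative chosen after seeing the data, ced-12 ranked 11568 and the engulfment median was 1235.5, while the killing median was 3799.5 and the all-gene median 5817.5. With 10000 bp on each side, 1 of 4 killing genes, egl-1, and 3 of 6 engulfment genes had a conservative peak, against 22.5% of all genes.

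At most engulfment genes the replicates had the same region on top. At the killing genes they did not, as at most protein-coding genes, so the killing genes do not stand out in this. The strongest candidate of replicate 1 and that of replicate 2 overlapped by at least 1 bp at 0 of 4 killing genes and at 5 of 6 engulfment genes (ced-6, ced-2, ced-5, ced-12 and ced-10), against 27.1% of the 17967 protein-coding genes with a candidate in both replicates. At ced-1 the strongest region of replicate 1 lay elsewhere in the window from that of replicate 2. No test of the difference was made, and 4 of the 5 genes with matching regions are those with series-wide ranks up to 585. With a reciprocal overlap of 50%, ced-6 dropped out and 4 engulfment genes remained, against 23.8% of all genes.

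In wider lists of cell death genes, the share with a peak was near that of all genes. Of 71 further genes, 9 had a conservative peak in the gene or within 5000 bp (12.7%), which is close to the share of 14.5% over all genes. Among 18 transcriptional and lineage regulators of cell death, lin-35, the retinoblastoma homolog, was the single gene with a peak, 199 bp upstream of its start and 219 bp from that of vps-51, with a signal value of 107.9. None of 10 other killing genes had one, although a candidate 1853 bp upstream of the caspase gene csp-1, with a signal value of 115.7 and an IDR of 0.000334, is among those the conservative list leaves out. None of 11 DNA degradation genes had one, and the highest candidate there, in the window of cyn-13, had a signal value of 64.4 and an IDR of 0.0282.

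Of 17 other engulfment genes, 5 had a conservative peak in the window (29.4%), against 14.5% of all genes. In none of the 17 was the gene's own start the nearest within 5000 bp, against 4.69% of all genes that had such a peak. The peaks of src-1 (signal value 184.2), a Src kinase gene, and of the phospholipid flippase gene tat-1 (102.2) lay in introns within 100 bp of a tRNA gene. The peak of the beta integrin gene pat-3 (142.7) was 136 bp from the start of ccdc-47, and that of chat-1 (97.6), which encodes the partner of TAT-1, was 131 bp from the start of wapl-1. The peaks near psr-1, a gene for a phosphatidylserine-binding protein, had signal values of 103.1 and 79.8 and lay 4723 and 2600 bp past its end. Among 15 phagosome maturation genes, 3 had a conservative peak. The peak near the late endosome gene rab-7 with a signal value of 789.1 lay at the snoRNA gene W03C9.9, 4687 bp past its end, and the second, with a signal value of 126.8, lay 777 bp upstream of rab-7 and 164 bp from the start of W03C9.5. The peak of unc-108, the Rab2 gene, lay in its own intron (65.8), and that near sand-1 in an intron of F41H10.3 (86.6). By nearest start within 5000 bp, lin-35 and unc-108 were the 2 genes of the 71 with a peak, against 4.69% of all genes.

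**Figure D4:**
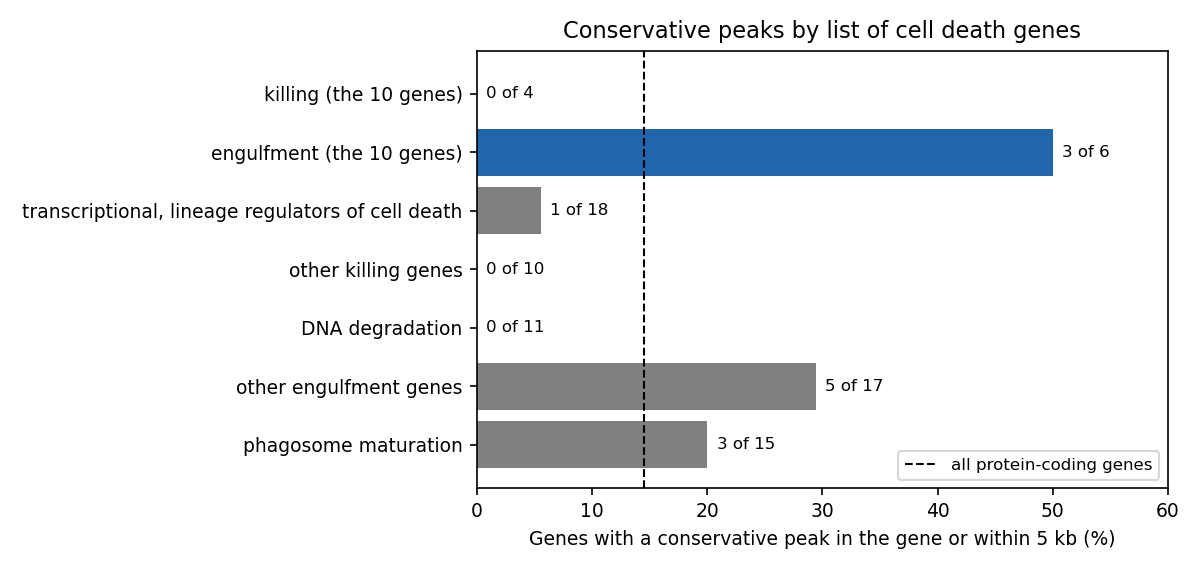
Share of genes with a conservative peak in the gene or within 5000 bp, for the killing and engulfment genes and the wider lists, with counts beside the bars and the share over all protein-coding genes, 14.5%, as a dashed line. The killing genes, the other killing genes and the DNA degradation genes show 0, and the engulfment genes show 3 of 6.

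To place the peaks within the list, the promoter peaks next to each by signal value are given, with peaks elsewhere passed over. Those next above ced-5 (216.3) were those of sluh-7 (216.9) and Y38C1AA.12 (218.1), and the next below were those of thoc-5 (214.3) and W02H5.19 (213.9). Around the peak near ced-2 (118.3) stood those of C27C12.4 (118.3), ant-1.1 (118.5), cebp-2 (118.3) and C27F2.10 (118.2). Around the peak near ced-6 (333.5) stood those of F55A11.11 (339.7), ears-2 (341.8), T07F10.3 (322.9) and pfd-5 (309.9), of which the F55A11.11 peak lay, like that near ced-6, within 100 bp of a snoRNA gene, F55A11.10. These positions in the list say nothing of shared function.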

How the data were processed

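Peak lists of 2 biological replicates in 1 group were used as the authors deposited them, with coordinates on ce11 per the labels. Deposited text files state that the lists derive from alignments of the precipitated and control libraries, and the thresholded ones from an additional file as well. Neither aligner nor peak caller is named in the sources used here, and the control was not used here. The deposited signal value is what the authors' caller wrote for a region. The deposited score encodes the authors' IDR and is capped at 1000. Ranked lists also carry the −log10 of the IDR as deposited, and summit offsets gave positions. The ranked series-wide list has 8 more per-sample columns without names, which were not used.

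Gene models came from Ensembl release 115 and sequence from RefSeq, both on WBcel235, and 9 of the 10 genes had the same ends in RefSeq. For ced-6 the RefSeq end lies 10 bp farther, which puts the peak 4158 bp past it and leaves its count as it was. A summit counted for a gene when inside it or within 5000 bp. Small RNA genes were taken within 100 bp of a summit. The members, lists and motifs were chosen with earlier results of these data known, so no p-values are given. Named genes were the 10 members, listed genes with a conservative peak, the strongest candidate of each list, genes nearest to a named peak, and the 2 promoter peaks (between 1000 bp before and 200 bp after a start) above and below each peak of a member. The shared word was chosen after seeing the data. Python 3.11.15 and pandas 2.3.3 were used, and the counting was tested on simulated data. Alternatives were other lists, thresholds, windows, positions and rankings.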

Additional observations from a re-analysis of the deposited data

How the results depend on the processing

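The count of 0 killing genes with a conservative peak was unchanged under every alternative run except 10000 bp on each side, where it was 1 (egl-1). The counts for the 10 genes and for the engulfment genes, both 3, were 1 by nearest start within 5000 bp, and from 2 to 4 under the other alternatives. The share of all genes, 14.5%, was 4.69% by nearest start, 8.91% with 2000 bp on each side and 22.5% with 10000 bp. It was 11.8% with 5000 bp around the start alone and 12.1% with the highest score only. Leaving out a replicate gave 2 to 3 genes with a peak for the 10 genes and for the engulfment genes, and 0 for killing genes. The own thresholded list of replicate 1 lacked the peak near ced-2, while its ranked list held that region at rank 833 with an IDR of 0.0306. Without replicate 2, the median rank was 4244.5 at killing genes and 522.5 at engulfment genes, where all genes had 5635. Without replicate 1, it was 5313.5 at killing genes and 433 at engulfment genes, where all genes had 5588. The killing median was thus near the all-gene median in the list of replicate 2. The series-wide medians were 3799.5, 411 and 5729, but that list is longer, so each median is read against all genes of its own list. The engulfment median moved to 1235.5 without the passing candidates that the conservative list leaves out (chosen after seeing the data), and to 6051 with 2000 bp on each side and with 5000 bp around the start alone, since regions near ced-6 and ced-12 then lie outside. For single genes, 57 of 80 alternative ranks and 42 of 80 alternative percentiles differed from the reported value by no more than the SD between the replicates. The 2 settings that leave out a replicate give that SD and are also among the alternatives. These counts therefore depend on how far the replicates differed at each gene and do not measure stability. The lists give no depth, so no limit on undetected binding can be set from counts.

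No paired analysis was possible because there is 1 group and no contrast between conditions. With 2 replicates, the spread at each gene rests on 2 values.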
